A study of Mus musculus with 4 samples.

Results

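The genes described here were chosen by name. Most encode the machinery that brings proteins into mitochondria and shapes the folds of the mitochondrial inner membrane, the cristae. The choice took the protein-coding genes of the mm10 RefSeq annotation whose symbols start with Timm, Tomm, Micos or Chchd, plus Immt, Samm50 and Opa1. This gave 39 members among 21887 protein-coding genes on the autosomes, X and Y. The rule uses gene names and no measured value, but it was drawn up with earlier results of these data known. SHP (small heterodimer partner, gene Nr0b2) is an orphan nuclear receptor without a DNA-binding domain, and its sites in chromatin were mapped by chromatin immunoprecipitation and sequencing (ChIP-seq) with an anti-SHP antibody. Jejunum and ileum came from C57BL/6 wild-type mice and from SHP-KO mice, aged 8 to 12 weeks, all of which had been fasted for 12 h and then refed normal chow for 4 h. No fasted group was included, so feeding was not compared with fasting. Each genotype had 1 peak list, and per the labels' protocols 3 sets of DNA, each pooled from 3 mice, stood behind the samples. The knockout mice lack the antigen and give the background of the antibody. The input DNA samples were not analysed here. The peaks came from whole pieces of gut with several cell types, and the cells that carry a given peak cannot be told apart.

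Nearly all mitochondrial proteins are made in the cytosol and enter through the TOM complex of the outer membrane. From there, beta-barrel proteins pass to the SAM complex, proteins with a cleavable presequence pass to the TIM23 complex, and metabolite carriers are escorted by small TIM chaperones to the TIM22 complex. Small cysteine-rich proteins are trapped in the intermembrane space by a disulfide relay. The MICOS complex holds the narrow junctions of the cristae in place, and OPA1 remodels and fuses the inner membrane. The enterocyte depends on its mitochondria to handle absorbed fat.

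A gene was counted as occupied when the summit of at least 1 wild-type peak lay within 5 kb of either end of the gene. Of the 39 members, 12 were occupied (30.8%, 95% exact binomial interval 17.0 to 47.6, counting error only), against 5778 of all 21887 protein-coding genes (26.4%). The interval is wide, and no difference from the share of all genes can be read from this count. The occupied members were Micos10, Timmdc1, Timm23, Tomm40, Timm17a, Immt, Chchd1, Chchd7, Chchd4, Micos13, Timm10b and Timm50. Enrichment value means the signal that the authors deposited for each peak, on a scale that is not stated. The highest enrichment value within 5 kb of each occupied member had a median of 5.85 and ran from 3.19 to 11.70, against a median of 5.73 over the 5778 occupied genes and 5.65 over all 5775 wild-type peaks. The members differed among themselves in whether a peak was present, how high it was, and whether a neighbouring gene shared it. With 1 list per genotype there was no replicate spread to set these differences against, and no test was made.

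Members and all genes were also counted under narrower and wider rules. Within 1 kb, 11 members were occupied (28.2%, against 20.7% of all protein-coding genes), and within 10 kb 14 were (35.9% against 30.5%). Within 50 kb the count was 24 (61.5% against 48.2%). With any base of the peak counted within 5 kb it stayed at 12 (30.8% against 26.9%). When a summit counted for its nearest protein-coding gene alone, 9 members were occupied (23.1% against 21.0%). Within 5 kb of an annotated transcription start, 11 of 34 members with a start were (32.4% against 24.3%). In stricter lists the shares were 17.9% against 12.7% at the score that stands for an irreproducible discovery rate of 0.01, 15.4% against 14.8% at or above the median −log10 p, and 7.69% against 6.89% at or above the 75th percentile of the enrichment value. Micos10 and Timmdc1 were occupied under each of the 3 stricter lists, within 1 kb and as the nearest gene.

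**Figure D1:**
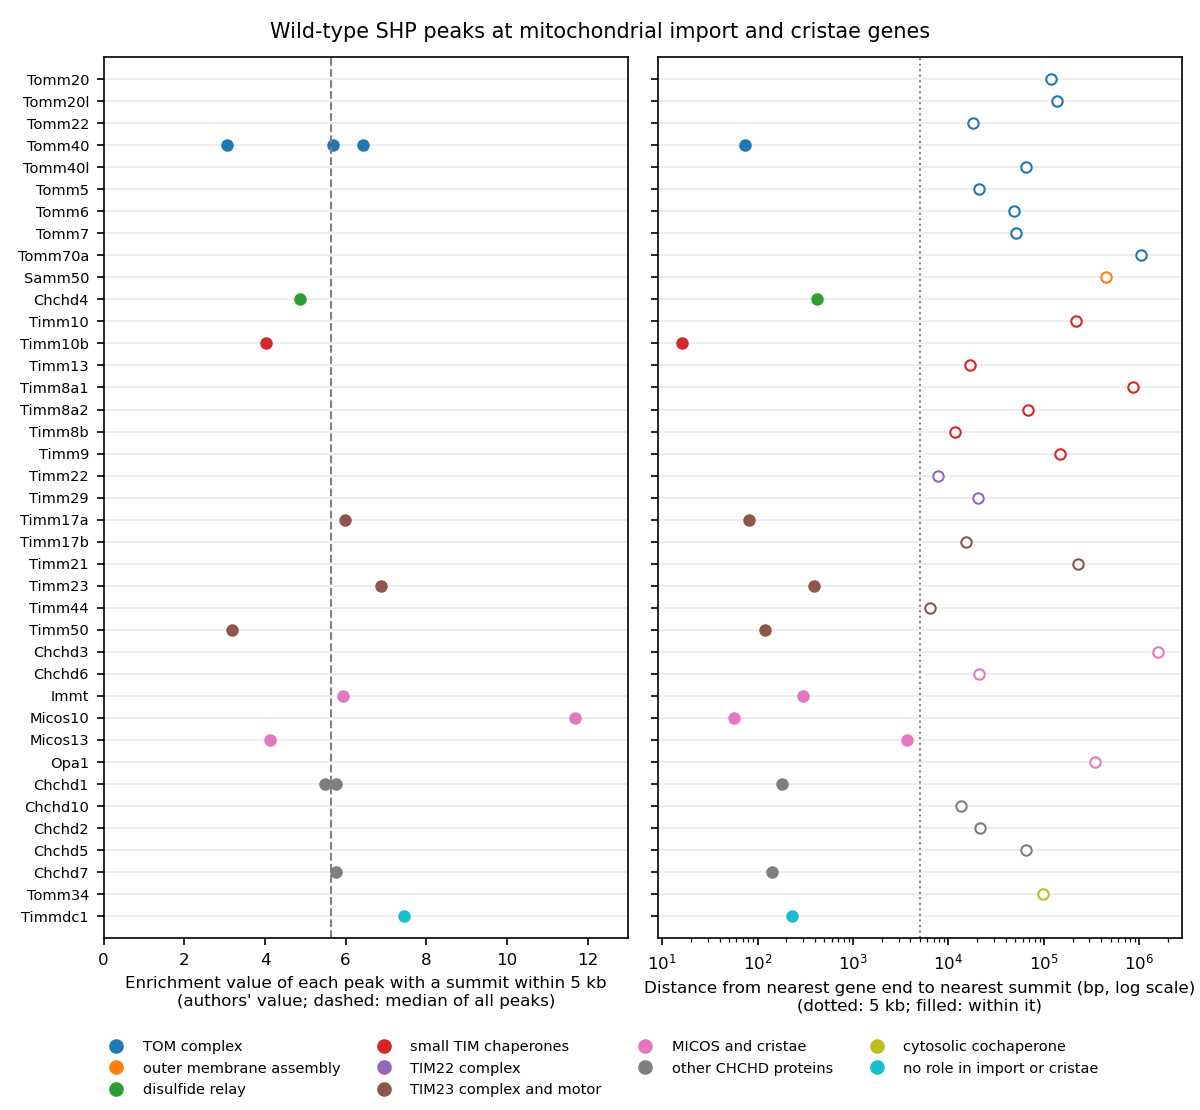
Each row is 1 of the 39 member genes, coloured by role. The left panel gives the enrichment value of each peak with a summit within 5 kb (dashed line, median of all peaks, 5.65), and the right panel the distance from the nearest gene end to the nearest summit in bp on a log scale. Filled symbols mark the 12 occupied members, and Micos10 stands apart at 11.70.

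The cristae genes held the strongest peak of the family. Of the MICOS and cristae genes, 3 of 6 were occupied (exact interval 11.8 to 88.2%, against 26.4% of all protein-coding genes), namely Micos10, Immt and Micos13. Micos10, which encodes MIC10, the small hairpin protein that bends the membrane at cristae junctions, spans chr4:139101814-139131113. Its peak lay at chr4:139130026-139131250, with an enrichment value of 11.70 (2.07 times the list median, rank 8 of 5775) and a −log10 p of 50.05 (rank 13). The summit fell between the 2 annotated transcription starts of Micos10, 56 bp downstream of the outer one and 20 bp upstream of the inner one, and no other protein-coding gene had an end within 5 kb of it. Immt encodes mitofilin (MIC60), the scaffold subunit of MICOS, and spans chr6:71831091-71875266. Its peak had an enrichment value of 5.94 (rank 2310), with the summit 72 bp downstream of the annotated start and no other protein-coding gene sharing it. Both genes therefore had their own peak at the start, with the Micos10 value higher than that of Immt and the Immt value close to the median of the list.

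The other MICOS genes were less clear or had no peak nearby. Micos13, at chr17:56607452-56609771, encodes MIC13 (QIL1), which bridges the subcomplexes of MICOS. It was occupied through a summit 3686 bp upstream of its start, with an enrichment value of 4.13 (rank 5285). That summit lay 789 bp from an end of Rpl36, a gene of the large ribosomal subunit, and 840 bp from an end of Lonp1, the protease of the mitochondrial matrix. Chchd3 and Chchd6 encode MIC19 and MIC25, the peripheral subunits that bind mitofilin. Their nearest summits were 1574821 bp and 21037 bp away. Opa1, which encodes the dynamin-like GTPase of the inner membrane, had its nearest summit 345899 bp away. A peak at a start was thus found for 2 of the 6 genes of this group, a count too small to set the group apart. Within 1 kb of either end, 33.3% of the group and 20.7% of all protein-coding genes were occupied.

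In the TIM23 group, Timm23, Timm17a and Timm50 were occupied and Timm17b, Timm44 and Timm21 were not, which makes 3 of 6 genes (exact interval 11.8 to 88.2%, against 26.4% of all protein-coding genes). Timm23, at chr14:32180166-32201891, encodes a core subunit of the complex by which presequence proteins cross the inner membrane. Its peak had an enrichment value of 6.87 (rank 856) and a −log10 p of 18.5, with the summit 386 bp upstream of the Timm23 start. Timm23 and Parg, which encodes poly(ADP-ribose) glycohydrolase, are divergent genes separated by 38 bp, and the summit lay 306 bp downstream of the Parg start and nearer to an end of Parg. Timm17a, at chr1:135301535-135313737, encodes a partner of TIM23 in the core of the complex. Its peak had a value of 5.98 (rank 2232), with the summit 82 bp downstream of the start, and was not shared. Timm50, at chr7:28305516-28312046, encodes the receptor that hands presequences to TIM23. Its peak was among the weakest of the list, with a value of 3.19 (rank 5690) and a −log10 p of 7.35, and its summit lay 120 bp downstream of the start and 2965 bp from an end of Supt5, which encodes a transcription elongation factor. The values at the 3 genes thus ran from near the bottom of the list to rank 856.

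Timm44, which encodes the tether of the import motor, missed the 5 kb limit with a nearest summit at 6455 bp, a summit whose nearest gene was Snapc2. Timm17b, the X-linked paralog of Timm17a, had its nearest summit 15241 bp away, and Timm21, which links TIM23 to the outer membrane and the respiratory chain, 225823 bp away.

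Of the TOM complex genes, 1 of 9 was occupied (11.1%, exact interval 0.281 to 48.2, against 26.4% of all protein-coding genes), a count too small to set the complex apart from other genes. Tomm40, which encodes the beta-barrel pore of the outer membrane, spans chr7:19701313-19715442 and had 3 summits within 5 kb of its ends. The peak at its transcription start was weak, with an enrichment value of 3.06 (rank 5709) and the summit 61 bp downstream. That summit was also 1276 bp from an end of Nectin2. A stronger peak of 6.43 (rank 1471) lay inside the gene, 1976 bp from its far end and 12140 bp downstream of the start. Its summit was also 1979 bp from an end of Apoe. The remaining summit, with a value of 5.68, lay 4647 bp beyond the far end of Tomm40. It was 422 bp inside Apoe and 4007 bp from an end of Apoc1. Apoe, which encodes apolipoprotein E, lies 2 bp from Tomm40 on the same strand. The order of the values was therefore lowest at the Tomm40 start and higher on the side of Apoe, and within 1 kb the highest value at Tomm40 was 3.06 in place of 6.43.

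**Figure D2:**
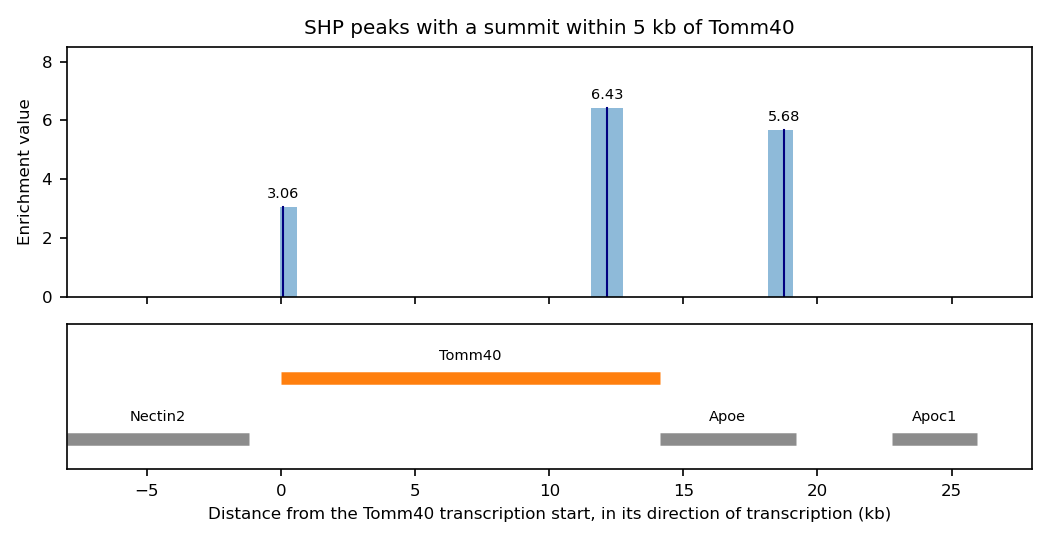
The upper panel shows the 3 peaks with a summit within 5 kb of Tomm40 as bars of their true width, with the summit as a line and the authors' enrichment value as height. The lower panel shows the genes, by distance in kb from the Tomm40 start in its direction of transcription. The peak at the start (3.06) is the lowest, and the peaks of 6.43 and 5.68 lie at 12140 bp and 18763 bp downstream.

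The receptors of the TOM complex had no summit within 5 kb. The nearest was 118183 bp from Tomm20 and 18130 bp from Tomm22, which encode the receptors for presequences, and 1046181 bp from Tomm70a, the receptor for carrier proteins. The small subunits Tomm5, Tomm6 and Tomm7, which stabilise the pore, had their nearest summits 20857, 48718 and 51215 bp away. For the paralogs Tomm20l and Tomm40l the distances were 136561 and 65216 bp. Samm50, which encodes the barrel that inserts other beta-barrels into the outer membrane, had its nearest summit 447221 bp away.

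Of the small TIM chaperone genes, 1 of 7 was occupied (14.3%, exact interval 0.361 to 57.9, against 26.4% of all protein-coding genes). Timm10b, at chr7:105640445-105655748, encodes the small TIM that docks the chaperones onto the TIM22 complex. Its peak had an enrichment value of 4.03 (rank 5354), with the summit 16 bp downstream of the start. Arfip2, which encodes a protein that binds ARF and RAC GTPases, starts in the opposite direction 28 bp away and has its end 45 bp from the same summit. Timm9 and Timm10, which form the main carrier chaperone, had nearest summits 148305 and 217838 bp away. For Timm8a1, Timm8a2, Timm8b and Timm13, which form or resemble the alternative chaperone, these distances were 848345, 68667, 11849 and 16934 bp. The TIM22 genes were both unoccupied, with nearest summits 7852 bp from Timm22, the carrier channel, and 20342 bp from Timm29, a subunit that joins it to TOM. At Timm22 that summit had an enrichment value of 7.42 and belonged, by distance, to Nxn.

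Chchd4 encodes MIA40, the oxidoreductase that starts the disulfide relay, and spans chr6:91464276-91473423. Its peak had a value of 4.86 (rank 4411), with the summit 424 bp upstream of its start. The divergent neighbour Tmem43, which encodes a membrane protein of the nuclear envelope, lies 283 bp away, and the summit was 140 bp downstream of its start, so Tmem43 was the nearer gene.

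Of the genes for further proteins with the coiled-coil-helix-coiled-coil-helix fold, 2 of 5 were occupied (exact interval 5.27 to 85.3%, against 26.4% of all protein-coding genes). Chchd1, a subunit of the mitochondrial ribosome at chr14:20703027-20704425, had a peak of 5.50 with the summit 182 bp upstream of its start, 2648 bp from an end of Fut11 and 3432 bp from one of Zswim8. It had another peak of 5.76 that lay 4573 bp downstream of its start and 48 bp downstream of the start of Zswim8. Chchd7, at chr4:3938840-3951383, had a peak of 5.75 with a −log10 p of 19.4, 142 bp inside one end. That summit was 552 bp from an end of Plag1, a zinc-finger factor, and the 2 genes are 409 bp apart. Chchd10, Chchd2 and Chchd5 had nearest summits 13438, 21179 and 64642 bp away, and CHCHD10 and CHCHD2 are paralogs of the intermembrane space that act on respiration.

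The remaining members carry the prefix but act elsewhere. Timmdc1, at chr16:38497843-38522778, encodes an assembly factor of respiratory complex I that resembles TIM17. Its peak had the next highest value of the family after Micos10, 7.45 (rank 388), with a −log10 p of 19.3 and the summit 113 bp downstream of a start and 2508 bp from an end of Poglut1, an O-glucosyltransferase gene. Tomm34, a cytosolic cochaperone that binds HSP70 and HSP90, had its nearest summit 97256 bp away. Without Timmdc1, 11 of 38 members were occupied (28.9%, against 26.4% of all protein-coding genes).

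**Figure D3:**
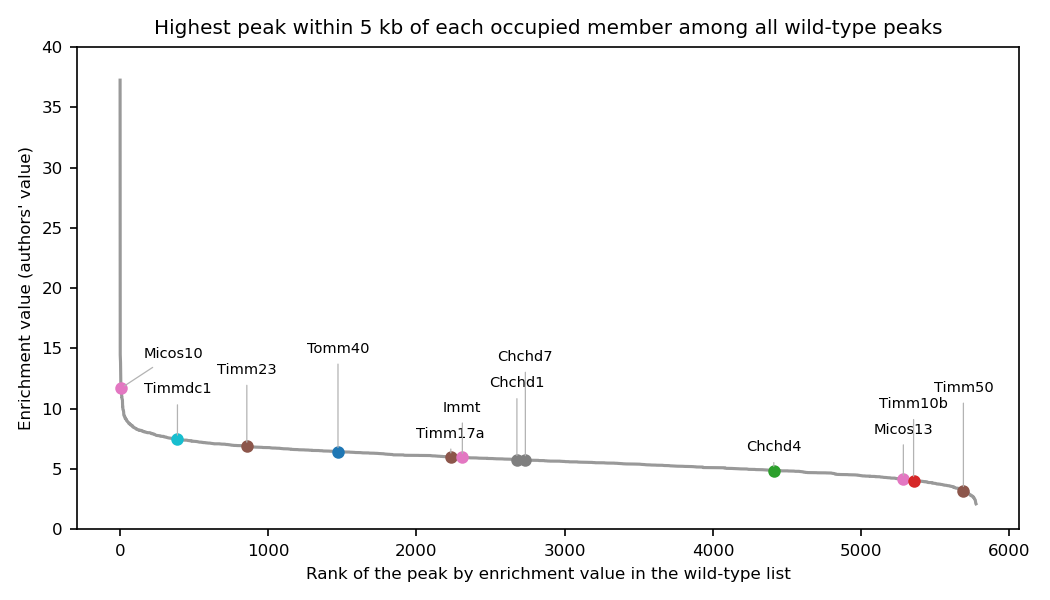
All 5775 wild-type peaks are drawn as a line by rank (horizontal axis) and enrichment value (vertical axis), with the highest peak within 5 kb of each of the 12 occupied members as points coloured by role. Micos10 is at rank 8, and the other members spread from rank 388 (Timmdc1) to rank 5690 (Timm50).

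Members with a peak had it mostly at the transcription start, as did occupied genes as a whole. Starts were taken from RefSeq promoter windows of GRCm38.p6, the assembly with the coordinates of mm10, which cover 34 of the 39 members and 11 of the 12 occupied ones. A summit within 500 bp of a start was present at 10 of these 11, and Micos13 was the exception. That count takes any summit within 5 kb and was not made for all occupied genes. For the highest peak of each gene the count was 8 of 11 (72.7%), against 68.9% of the 4663 occupied genes with a start in the table. Summits of the highest peaks lay downstream of the start at 7 members and upstream at 4, against 3095 and 1563 of all occupied genes.

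**Figure D4:**
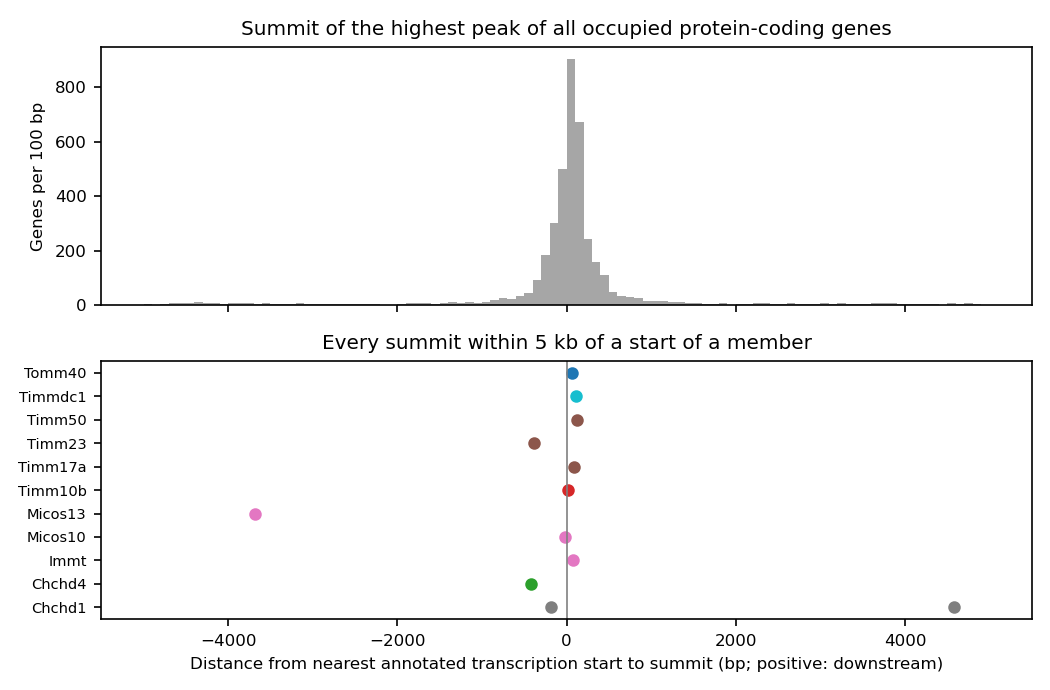
The horizontal axis gives the distance in bp from the nearest annotated transcription start to a summit, positive downstream. The histogram counts the highest peaks of all occupied protein-coding genes. The lower panel shows every member summit within 5 kb of a start, of which 10 lie within 500 bp. The panels therefore differ in which peaks they take.

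Sharing of a peak with a neighbour was frequent. The highest peak was also within 5 kb of another protein-coding gene at 9 of 12 members, against 45.1% of all occupied genes. Micos10, Immt and Timm17a were the members whose highest peak was not shared. In 3 of the 9 cases the genes were divergent and under 300 bp apart (Timm23 with Parg, Chchd4 with Tmem43, and Timm10b with Arfip2). The member was the nearest protein-coding gene for its highest peak at 8 of 12 genes (66.7%), against 76.7% of all occupied genes. The exceptions were Timm23, Chchd4, Micos13 and Chchd1, and Chchd1 was the nearest gene to its weaker peak. For a shared peak, the data do not show which of the genes SHP is linked to.

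The unoccupied members ranged from just beyond the limit to megabases from any summit. Of the 27, 2 had a summit between 5 and 10 kb away (Timm44 and Timm22), 9 between 10 and 25 kb, 6 between 25 and 100 kb and 10 further away. Their median distance was 64642 bp, against 131894 bp for the 16109 unoccupied protein-coding genes.

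Promoter sequences are printed for the 3 members whose summit fell within the RefSeq promoter window, so that the letters under the peak can be seen. Each window runs 5′ to 3′ on the strand of the gene, from 250 bases before the start to 50 bases from the start on. Capitals mark matches, on either strand, to the ETS core CCGGAA, the nuclear receptor hexamer AGGTCA, its extension AAGGTCA for receptors that bind as monomers such as LRH-1 and ERR, the E-box CACGTG, the CRE core TGACGT and the GC box GGGCGG. The search also covered the CCAAT box, the YY1 core AGATGGC, the NRF1 core CGCATGC and the AP-1 motif TGANTCA, which these windows did not hold. AAGGTCA contains AGGTCA, so a match to the longer motif counts for both. The windows are chr4:139130988-139131287 (minus strand, inner start, summit at base 231) for Micos10, chr14:20702777-20703076 (plus strand, summit at base 69) for Chchd1, and chr7:105640195-105640494 (plus strand, summit at base 267) for Timm10b.
Micos10: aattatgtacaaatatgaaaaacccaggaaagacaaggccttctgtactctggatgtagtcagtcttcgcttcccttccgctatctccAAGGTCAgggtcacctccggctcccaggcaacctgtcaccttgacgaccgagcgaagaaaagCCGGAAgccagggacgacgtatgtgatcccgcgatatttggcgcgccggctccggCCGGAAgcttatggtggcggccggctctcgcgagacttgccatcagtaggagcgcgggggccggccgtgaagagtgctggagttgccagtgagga
Chchd1: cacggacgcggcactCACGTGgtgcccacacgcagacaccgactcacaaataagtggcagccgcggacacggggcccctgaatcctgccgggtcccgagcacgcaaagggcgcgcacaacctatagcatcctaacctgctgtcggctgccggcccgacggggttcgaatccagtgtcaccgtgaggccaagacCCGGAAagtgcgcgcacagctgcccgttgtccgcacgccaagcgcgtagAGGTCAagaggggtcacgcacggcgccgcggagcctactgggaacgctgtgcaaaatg
Timm10b: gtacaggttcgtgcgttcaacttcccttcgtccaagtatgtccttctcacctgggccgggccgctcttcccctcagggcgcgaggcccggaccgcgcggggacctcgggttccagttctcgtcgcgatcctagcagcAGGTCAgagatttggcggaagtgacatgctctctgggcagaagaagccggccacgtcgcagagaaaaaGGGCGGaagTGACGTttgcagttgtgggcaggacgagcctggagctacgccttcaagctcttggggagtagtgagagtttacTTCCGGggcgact
All 3 windows held the ETS core and the hexamer AGGTCA, and the Micos10 window held the ETS core at 2 places and the extended hexamer AAGGTCA. A match describes letters and does not show that a factor binds there.

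Across the member promoters, the hexamer and the ETS core were common with and without a peak. For these counts each gene had 1 window, at its outermost start. AGGTCA was found in 14 of 34 member windows (41.2%), against 14.5% of the 17492 windows of protein-coding genes and 11.0% of the 4663 windows of occupied genes. It was present at 5 of 11 occupied members (Chchd1, Chchd4, Micos10, Timm10b and Timm23) and at 9 of 23 unoccupied ones. AAGGTCA was found in 5 of 34 (14.7%), against 4.06% of all windows, namely at Micos10, Timm23, Chchd6, Timm44 and Timm8b. The ETS core was found in 17 of 34, against 19.1% of all windows and 27.1% of those of occupied genes. It was present at 6 of 11 occupied and 11 of 23 unoccupied members. CACGTG, the E-box to which TFEB and USF factors bind, was found in 7 of 34 (20.6%), against 7.91% of all windows and 10.9% of those of occupied genes. It was present at 1 of 11 occupied members (Chchd1) and at 6 of 23 unoccupied ones (Chchd3, Timm10, Timm8a1, Timm9, Tomm20 and Tomm20l). These counts are too small to set occupied and unoccupied members apart. The GC box was found in 14 of 34 (41.2%), against 46.3% of all windows and 70.6% of those of occupied genes. CCAAT was present in 38.2% of member windows and 39.2% of all windows. AGATGGC was present at 5.88% and 6.16%, CGCATGC at 5.88% and 4.50%, TGANTCA at 14.7% and 7.03%, and TGACGT at 2.94% and 8.71%. GC content of the windows had a median of 61.0% at occupied and 56.7% at unoccupied members, and of 63.7% at occupied and 53.3% at unoccupied genes overall. Its part in these counts was not tested.

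Other genes of the pathway were counted in the same way. Over 54 further genes of import, cristae and the intermembrane space, 17 were occupied (31.5%, exact interval 19.5 to 45.6), against the 26.4% of all protein-coding genes. Among import factors 7 of 22 were occupied. The highest enrichment values were 8.15 at Pmpca, the alpha subunit of the protease that removes presequences, 7.75 at Romo1, a small TIM23-associated protein, and 6.11 at Pmpcb, the beta subunit of that protease. The Romo1 peak was also within 5 kb of Nfs1, its nearest gene, and of Rbm39, and the Pmpca peak was also within 5 kb of Entr1. Hspa9, the matrix HSP70 that pulls proteins in, and Hspd1 and Hspe1, the matrix chaperonin, had nearest summits 76468, 24870 and 35185 bp away. Among genes of cristae, quality control and dynamics 6 of 19 were occupied, with the highest values at Oma1, the stress protease that cuts OPA1 (7.12), Clpp, the peptidase of the matrix (6.48), and Afg3l2, a protease of the inner membrane (5.88). Of the mitofusins, which fuse outer membranes, Mfn1 had a peak of 5.58 with the summit 117 bp downstream of a start, and Mfn2 had its nearest summit 36761 bp away. Among small proteins of the intermembrane space 4 of 13 were occupied. Triap1, a lipid transfer protein, had 8.76 in a peak shared with Gatc and Cox6a1, Ndufs5, a subunit of complex I, had 7.37, and Coa6, an assembly factor of cytochrome oxidase, had 5.89 in a peak shared with Tarbp1.

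Other families of mitochondrial genes are given beside the members as counts, with no test. Mitochondrial ribosomal protein genes (Mrpl and Mrps) were occupied at 33 of 78 (42.3%, exact interval 31.2 to 54.0), SLC25 carriers, the main cargo of the TIM22 route, at 19 of 47 (40.4%, 26.4 to 55.7), and genes of the respiratory chain and ATP synthase at 38 of 109 (34.9%, 26.0 to 44.6). Their median enrichment values at occupied genes were 5.96, 5.25 and 5.64. The members' interval of 17.0 to 47.6 contains each of these shares as well as 26.4%, so the counts do not order the members against them. The respiratory chain set was taken by symbols starting with Nduf, Sdha to Sdhd, Uqcr, Cox and a digit, or Atp5, whatever the role of the protein. It shares genes such as Ndufs5 with the list of small intermembrane-space proteins.

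**Figure D5:**
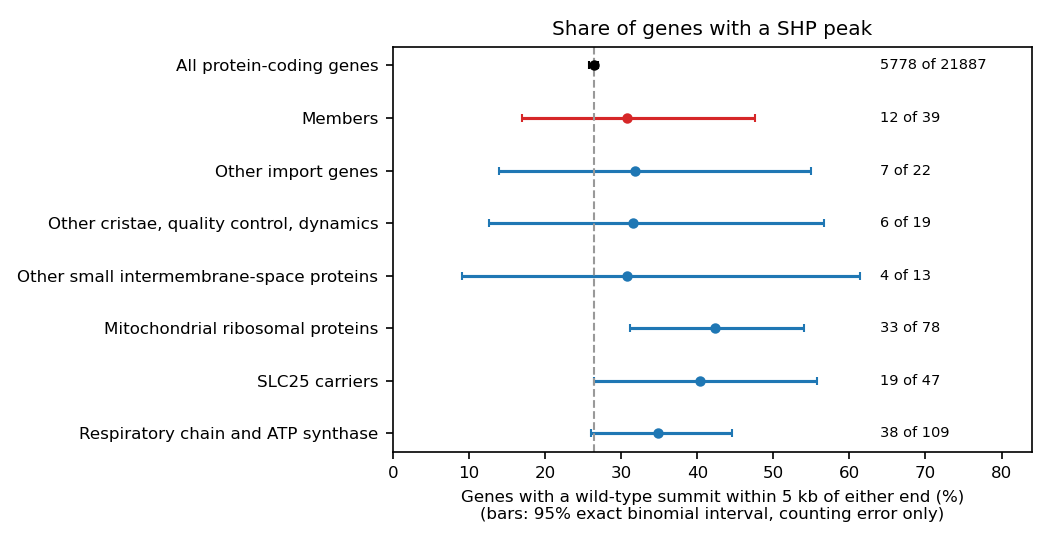
Points give the percentage of genes with a wild-type summit within 5 kb of either end, with 95% exact binomial intervals for counting error, for the 39 members, 3 lists of other import and cristae genes, 3 mitochondrial gene families and all protein-coding genes (dashed line, 26.4%). The members' interval crosses the dashed line. The respiratory chain set shares genes with the list of small intermembrane-space proteins.

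In SHP-KO intestine, the list of 7 peaks held no summit within 5 kb of a member. The knockout summit nearest to a member was 408483 bp from Tomm34. No knockout peak overlapped any of the 15 wild-type peaks at members. The knockout list was filtered in another way and had 4 protein-coding genes within reach of a summit in all, so its lack of peaks at the members does not show that the wild-type peaks depend on SHP.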

How the data were processed

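SHP ChIP-seq peaks of wild-type and SHP-KO intestine were used as the authors deposited them, in the 10-column narrowPeak layout without a header. CASAVA 1.4, BWA and mm10 are named in the submitters' processing notes. The peak caller, and whether input DNA served as its control, is not given in the sources used here. The files hold no read depth. Per the file name, wild-type peaks were filtered at an irreproducible discovery rate (IDR, agreement of replicate rankings) of 0.05, and their deposited score spans 540 to 1000. The deposited signal is called the enrichment value, and the deposited −log10 p and q values rank peaks within a list. Summits were set against gene ends in the RefSeq table of GRCm38.p6, which has no exons, with Python 3.11.15, pandas 2.3.3 and scipy 1.17.1. No test between genotypes or gene lists was made. The members and lists were chosen with earlier results of these data known. The text gives every occupied member, the distance of the nearest summit for the others, and up to 3 genes of each further list by enrichment value. Hspa9, Hspd1, Hspe1, Mfn1 and Mfn2 were named outside that rule, after their values were seen.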

Additional observations from a re-analysis of the deposited data

How the results depend on the processing

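Of 39 members, 12 were occupied in the list as deposited (30.8%, against 26.4% of all protein-coding genes). The count was 11 with a window of 1 kb (28.2% against 20.7%) and 14 with 10 kb (35.9% against 30.5%). With any base of the peak counted it was 12 (30.8% against 26.9%), and with the nearest protein-coding gene alone 9 (23.1% against 21.0%). Near annotated starts it was 11 of 34 (32.4% against 24.3%), and without Timmdc1 11 of 38 (28.9% against 26.4%). These counts stayed within 1.5 times of 12, and the share of all genes moved with the setting. The count was 24 with a window of 50 kb (61.5%, against 48.2% of all protein-coding genes). At the score that stands for an IDR of 0.01 it was 7 (17.9% against 12.7%). At or above the median −log10 p it was 6 (15.4% against 14.8%). At or above the 75th percentile of the enrichment value it was 3 (7.69% against 6.89%). Those 3 were Micos10, Timm23 and Timmdc1. The stricter lists hold fewer peaks and the wider window takes in more, by construction. The median enrichment value at occupied members, 5.85, was 5.75 within 1 kb, 5.63 for the peak nearest to a gene end and 5.94 for peaks nearest to the member. Of the 54 other pathway genes, 17 were occupied (31.5%, against 26.4% of all protein-coding genes). Within 1 kb 14 were (25.9% against 20.7%), and within 50 kb 33 were (61.1% against 48.2%). At or above the median −log10 p the count was 10 (18.5% against 14.8%). A window of 50 kb was chosen for single genes after the data were seen. With it the highest value rose to 11.17 at Timm50, 7.56 at Timm23, 7.17 at Chchd1, 6.65 at Timm10b and 5.03 at Micos13. It did not change at the other occupied members. No paired analysis was possible because each genotype had 1 peak list. Read depth was unknown, so weak or missing peaks cannot be set against sampling noise.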

Other observations

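Some paralogs of the import machinery had unequal SHP peaks and others had none on either side. Timm17a had a peak of 5.98 at its start and Timm17b had its nearest summit 15241 bp away. Tomm40 had 3 summits within 5 kb, and Tomm40l had its nearest 65216 bp away. Tomm20 and Tomm20l, Timm8a1 and Timm8a2, Chchd3 and Chchd6, and Chchd2 and Chchd10 were unoccupied in both genes of the pair. These are single values from 1 list, and the differences were not tested.

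Several member peaks had exactly the enrichment value and −log10 p of other peaks in the list, which limits how finely they can be ranked. The weaker Chchd1 peak shared its pair of values with 45 other peaks, the stronger one with 44, the Chchd4 peak with 41 and the Immt peak with 32. The Micos10 and Timm50 peaks, and the Tomm40 peaks of 6.43 and 5.68, shared theirs with 0 others.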
